A study of Mus musculus with 6 samples.

Results

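Peroxisome genes of mouse liver were compared between wild-type (WT) samples and samples with a hepatocyte-specific knockout of Atg14 (HepKO). The set held 44 genes of the 56350 gene entries in the count table: 13 biogenesis factors (Pex genes), 3 membrane transporters and 28 enzymes of the peroxisome. The genes were chosen by name and function rather than by their measured values, and all 44 were found once in the table. Bulk RNA sequencing of polyA RNA from whole liver was done on 3 WT and 3 HepKO samples. No source used here gives the Cre line, the deleted allele, whether the controls carried a floxed allele, or age, sex and diet. It is also not stated whether each sample was a separate animal, so p-values measure only the spread between these samples. That spread may be technical, except for HepKO replicate 1, whose sex-linked genes (below) mark it as a different animal from the other HepKO samples. The Atg14 protein is part of a lipid kinase complex needed to form autophagosomes.

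Peroxisomes are single-membrane organelles that shorten very long, branched and dicarboxylic fatty acids, make the first intermediates of ether lipids, oxidise glycolate, pipecolate and urate, and break down the hydrogen peroxide that their oxidases release. Their enzymes are made in the cytosol and imported folded: the receptors Pex5 and Pex7 bind the cargo, Pex13 and Pex14 form the docking site, Pex2 and Pex10 belong to a ubiquitin ligase that marks the receptor, and Pex6, held at the membrane by Pex26, pulls it out again. Pex3, Pex16 and Pex19 insert membrane proteins, and the Pex11 proteins act in elongation and division. In liver, many of the fatty acid enzymes are known targets of the nuclear receptor PPARA, which binds DNA with RXRA, and worn peroxisomes are removed by a form of autophagy named pexophagy.

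Total counts were 35720011 to 41754560 in WT and 33145684 to 48951937 in HepKO, and trimmed mean of M-values (TMM) factors were 0.824 to 0.860 in WT and 1.19 to 1.21 in HepKO. Atg14 was lower in HepKO, at 20.9, 22.2 and 21 CPM (counts scaled to the TMM-adjusted library total) in WT against 5.66, 8.44 and 7.94 in HepKO, a log2 fold change of -1.54 ± 0.16 (SE). HepKO replicate 1 stood apart in its sex-linked genes: Xist had 30377 counts there and 2 to 22 in the other 5 libraries, while 4 Y-linked genes had 3 to 6 counts each there and at least 571 in the others. By these counts HepKO replicate 1 was female and the other 5 samples were male, although the labels do not give sex. The HepKO group thus mixed sexes and the WT group did not. Results are therefore also given without HepKO replicate 1 where it changes them. Summed markers of most cell types differed between the groups, while those of endothelial cells and adipocytes overlapped. Beside the marker calls given here, 18.7% of all genes tested were called lower and 19.5% higher. Hepatocyte markers summed to 94157 to 115620 CPM in WT and 39695 to 47451 in HepKO, with 7 of 7 tested lower. The sums were 43.9 to 61.8 against 148 to 561 CPM for cholangiocyte markers (4 of 6 higher), 115 to 235 against 332 to 536 for macrophage markers (5 of 6 higher) and 174 to 259 against 448 to 529 for stellate and fibroblast markers (3 of 6 higher). Endothelial markers overlapped between groups, at 128 to 160 and 147 to 187 CPM (1 of 6 higher). Neutrophil markers summed to 0.878 to 1.81 against 2.89 to 11 CPM (2 of 2 tested higher, Ly6g under 10 counts in every library), and T, B and NK cell markers to 2.55 to 3.37 against 4.10 to 8.15 CPM (1 of 6 higher). Erythrocyte markers summed to 175 to 258 CPM in WT and 89.5 to 122 in HepKO (2 of 3 tested lower). Adipocyte markers summed to 27.3 to 79.3 and 14.1 to 31.1, with Adipoq, Plin1 and Lep under 10 counts in every library. Of the 2 adipocyte markers tested, 1 was higher and 1 lower. The part of these markers in the results below was not tested, and fewer hepatocytes and less RNA per hepatocyte cannot be told apart in whole liver.

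Most peroxisome genes had lower mRNA levels in HepKO liver. Of the 44 genes, 43 passed the filter on low counts, and 33 of them were lower and 3 higher at an FDR (Benjamini-Hochberg adjusted p of edgeR's quasi-likelihood test over all 16051 genes tested) under 0.05. Over all genes tested, 18.7% were called lower and 19.5% higher. The median log2 fold change (HepKO over WT) was -0.73 for the 43 genes and 0.01 for all genes tested. At least 2-fold changes were called lower for 12 of the 43 genes and higher for 1, against 5.74% and 12.9% of all genes. The largest fall was that of Acot4 and the largest rise that of Far1. Without HepKO replicate 1, 31 of the genes were called lower and 3 higher, against 17.5% and 16.3% of all genes, and Amacr (FDR 0.0688) and Cat (FDR 0.0604) lost their call. The remaining gene of the 44, Dao (D-amino acid oxidase), had 0, 0 and 0 counts in WT and 1, 0 and 1 in HepKO, at or under a floor of 3 counts, and was not tested.

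The scaling decides how many of these falls are called. TMM sets the median gene near no change, whereas plain library totals put the median log2 fold change of all genes at 0.52, and then 16 of the 43 genes were lower and 4 higher, against 5.84% and 46.4% of all genes (52.2% in either direction). The 16 genes lower under library totals were also lower in each of the 14 planned settings tried: Pex11a, Pex11g, Abcd3, Hsd17b4, Acaa1b, Scp2, Pecr, Ech1, Phyh, Hacl1, Gnpat, Hao1, Pipox, Uox, Acot4 and Nudt12. Slc25a17 and Far1 were higher in all of them. The log2 fold changes below are on the TMM scale unless library totals are named.

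**Figure D1:**
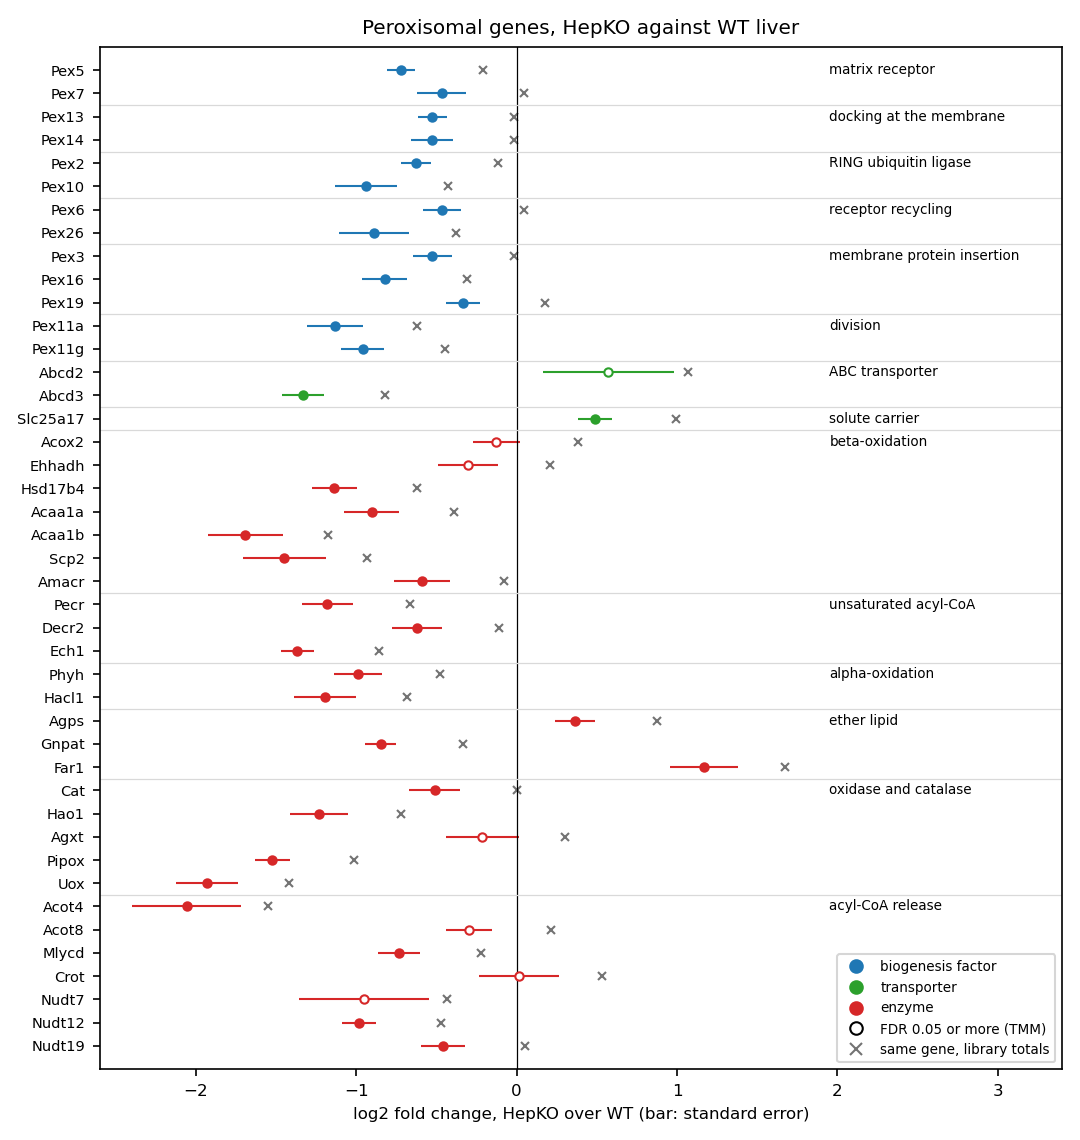
Log2 fold change (HepKO over WT) of the 43 tested peroxisome genes, grouped by role, with bars of 1 standard error; filled points have an FDR under 0.05, open points do not, and crosses give the same gene scaled by library totals. All 13 biogenesis factors lie below 0 on the TMM scale (-1.13 to -0.33), while with library totals Pex7, Pex6 and Pex19 lie above 0 and only Pex11a and Pex11g are called; the enzymes reach from -2.06 (Acot4) to 1.17 (Far1).

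Sequences upstream of the transcription start are shown for 5 genes, chosen after their values and sequences were seen: Acot4, Acaa1b and Abcd3, which fell more than 2-fold, and Far1 and Agps, which rose. They are examples and not the 5 most changed genes. Each is the 250 bases before a RefSeq start on the gene's own strand, free of annotated exons, with CpG dinucleotides in capitals. The windows, in GRCm38, are chr12:84038129-84038378 (plus strand), chr9:119157094-119157343 (minus), chr3:121815303-121815552 (minus), chr7:113513584-113513833 (plus) and chr2:75831927-75832176 (plus), in the order printed.
Acot4: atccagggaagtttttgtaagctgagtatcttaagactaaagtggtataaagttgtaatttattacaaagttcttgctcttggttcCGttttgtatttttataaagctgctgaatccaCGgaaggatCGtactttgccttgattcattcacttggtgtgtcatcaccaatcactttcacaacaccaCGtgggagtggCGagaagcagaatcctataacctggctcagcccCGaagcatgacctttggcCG
Acaa1b: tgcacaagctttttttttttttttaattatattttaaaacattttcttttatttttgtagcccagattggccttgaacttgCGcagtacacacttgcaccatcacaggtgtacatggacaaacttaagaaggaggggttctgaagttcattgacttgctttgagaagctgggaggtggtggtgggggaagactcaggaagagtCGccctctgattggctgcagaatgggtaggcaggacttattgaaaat
Abcd3: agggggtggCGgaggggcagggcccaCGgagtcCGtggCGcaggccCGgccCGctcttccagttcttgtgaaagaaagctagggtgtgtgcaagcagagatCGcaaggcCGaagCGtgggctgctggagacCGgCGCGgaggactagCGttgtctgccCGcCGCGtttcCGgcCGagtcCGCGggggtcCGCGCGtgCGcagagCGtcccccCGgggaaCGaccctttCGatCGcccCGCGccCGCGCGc
Far1: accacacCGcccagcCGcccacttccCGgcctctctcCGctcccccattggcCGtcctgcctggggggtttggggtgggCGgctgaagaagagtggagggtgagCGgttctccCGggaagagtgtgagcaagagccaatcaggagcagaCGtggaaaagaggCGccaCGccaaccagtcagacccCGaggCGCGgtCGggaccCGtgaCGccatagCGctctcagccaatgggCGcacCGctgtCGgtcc
Agps: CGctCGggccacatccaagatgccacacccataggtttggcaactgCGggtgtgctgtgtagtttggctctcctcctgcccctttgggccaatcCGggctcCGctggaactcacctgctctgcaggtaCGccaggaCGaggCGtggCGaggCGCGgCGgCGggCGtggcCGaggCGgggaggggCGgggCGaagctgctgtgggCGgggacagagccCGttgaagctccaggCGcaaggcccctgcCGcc
The windows hold 7, 2, 34, 21 and 22 CpG in that order. Abcd3 was taken to show a CpG-rich window beside a gene that fell.

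RefSeq promoters of 300 bases (250 before and 50 after the start, GRCm38.p6) were found for 38 of the 44 genes, 46 promoters in all. A CpG count of at least 0.6 times that expected from base composition was found in 11 of 14 promoters of biogenesis factors (78.6%), 12 of 29 promoters of enzymes (41.4%) and 35.8% of 32851 promoters of all genes. The median number of CpG was 16.5, 13 and 7 in the same order. By response, the 12 promoters of genes that fell at least 2-fold held 3 to 45 CpG (median 14.5) and the 3 promoters of genes that rose held 15 to 32, so the ranges overlapped. The direct repeat DR1, the spaced motif pair bound by PPARA and RXRA, was searched on both strands and found in 0 of the 46 promoters and in 0.381% of all promoters. At so small a share, 0 in a set of this size says little. No mismatch at a fixed letter was allowed, so near matches were missed. The last 13 bases of the Acot4 window above, read on the other strand, differ from the repeat only in their first letter. The single motif AGGTCA, which can lie inside that repeat, was found in 6 of 46 (13%) and 16.3% of all. The letters TATAAA of the TATA box were found in 4 (8.70%) and 13.6%. Both were searched on both strands and anywhere in the 300 bases. The match to TATAAA lay only on the other strand for Pex14, Pex16 and Pex26, while Acot4 has it on its own strand. These counts describe the letters in the windows only.

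All 13 biogenesis factors fell in HepKO on the TMM scale, by a median of 0.63 on the log2 scale, and in each the 3 HepKO libraries lay under the 3 WT libraries (26.4% of all genes tested did so). With library totals the median was -0.12, only Pex11a and Pex11g were called lower, and Pex7 (0.044), Pex6 (0.046) and Pex19 (0.18) turned positive. The receptor of most matrix enzymes, Pex5 (chr6:124396816-124415067, minus strand), measured 153, 152 and 160 CPM in WT and 90.0, 94.9 and 97.2 in HepKO. These values were tight within both groups, and the log2 fold change was -0.72 ± 0.09 (FDR 0.000758). The receptor of the N-terminal targeting signal, Pex7, changed by -0.47 ± 0.15 (FDR 0.0423). HepKO replicate 1 (81.1 CPM) was nearest to WT there, and without it the value was -0.66 (FDR 0.00299). Leaving out any other single library ended the call of Pex7.

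The other import factors were lower on the TMM scale as well, although none of them was called with library totals and the sign of Pex6 turned there. At the docking site, Pex13 changed by -0.52 ± 0.09 and Pex14 by -0.53 ± 0.13. In the ubiquitin ligase, Pex2 changed by -0.63 ± 0.10 and Pex10 by -0.94 ± 0.19, the latter at a low level (5.46 to 6.59 CPM in WT and 2.91 to 3.41 in HepKO). In receptor recycling, Pex6 changed by -0.47 ± 0.12 and Pex26 by -0.89 ± 0.22. The call of Pex6 was lost without WT replicate 3 and without HepKO replicate 2. Pex14 shares 1776 exon bases with a gene on the opposite strand, and whether the counting used strand is not stated. In membrane protein insertion the responses were more spread. Pex16 changed by -0.82 ± 0.14, Pex3 by -0.52 ± 0.12 and Pex19 by -0.33 ± 0.11 (FDR 0.0418), the smallest change of the 13. Pex19 measured 132, 146 and 166 CPM in WT and 121, 117 and 114 in HepKO. Its call was lost in each leave-out of 1 library except those of WT replicate 1 and HepKO replicate 1, and with library totals its sign turned (0.18).

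The division factors Pex11a and Pex11g fell most among the biogenesis factors and were the only ones of the 13 called lower in every planned setting. Pex11a (chr7:79735957-79743131, minus strand), itself a known PPARA target, measured 155, 214 and 258 CPM in WT and 100, 92.7 and 92.9 in HepKO. The WT libraries were spread and the HepKO libraries close together, with a log2 fold change of -1.13 ± 0.17 (FDR 0.00198). Pex11g measured 36.5, 37.5 and 46.6 CPM in WT and 18.1, 21.4 and 22.5 in HepKO, a log2 fold change of -0.96 ± 0.13 (FDR 0.00134). It shares 1396 exon bases with a gene on the opposite strand. Within each library, which needs no scaling, Pex11a counts were 1.17, 1.47 and 1.55 times those of Pex19 in WT and 0.825, 0.790 and 0.817 times in HepKO. The ratio was thus lower in every HepKO library. This pair and the other pairs whose ratios are given were chosen after the values were seen. Without HepKO replicate 1 and with library totals, Pex11a was the 1 biogenesis factor still called (-0.66, FDR 0.0297), and Pex11g missed (FDR 0.0563).

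**Figure D2:**
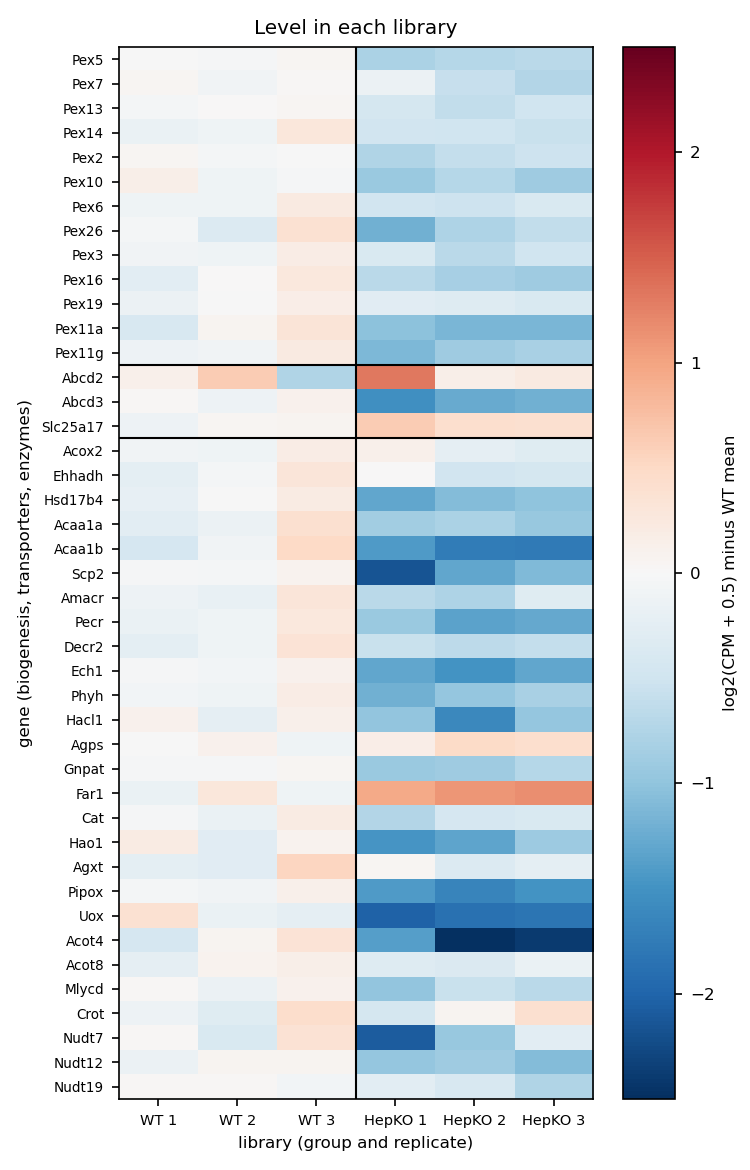
Log2 level of each tested peroxisome gene in each of the 6 libraries relative to its WT mean (colour scale: log2 of TMM-scaled CPM plus 0.5, minus the mean of the 3 WT libraries). The blue block of HepKO columns covers the 13 Pex genes on this scale (the sign of Pex7, Pex6 and Pex19 turns with library totals) and most enzymes, with Slc25a17, Agps and Far1 in the opposite colour and Abcd2 raised in HepKO replicate 1.

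The transporters of the peroxisomal membrane did not move together. Abcd3 (chr3:121758774-121815302, minus strand), an abundant ABC transporter that takes up long-chain, branched and bile acid precursors as CoA esters, measured 1006, 905 and 1071 CPM in WT and 345, 411 and 429 in HepKO. The groups lay far apart, with a log2 fold change of -1.33 ± 0.13 (FDR 0.000343). Slc25a17 (chr15:81318911-81360812, minus strand), a carrier of CoA, FAD and NAD, measured 61.7, 69.0 and 70.7 CPM in WT and 104, 89.3 and 88.3 in HepKO. Every HepKO library was higher, with a log2 fold change of 0.49 ± 0.11 (FDR 0.00893). The count ratio of Abcd3 to Slc25a17 was 16.3, 13.1 and 15.1 in WT and 3.30, 4.61 and 4.86 in HepKO, so it was lower in all 3 HepKO libraries without any scaling. Abcd2, an ABC transporter with a preference for very long and polyunsaturated chains, measured 23.3, 33.4 and 12.4 CPM in WT and 53.8, 23.6 and 25.1 in HepKO. The groups overlapped and the high value was that of HepKO replicate 1 (log2 fold change 0.57 ± 0.41, FDR 0.309, and 0.08 without that library).

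The enzymes of the beta-oxidation spiral split into genes that fell and genes that did not pass the test. Of the 7, 5 were lower, with a median log2 fold change of -0.90. Acaa1b (chr9:119148023-119157093, minus strand), one of a pair of ketoacyl-CoA thiolases, measured 1021, 1288 and 1913 CPM in WT and 509, 402 and 397 in HepKO. WT replicate 3 was highest, the groups did not overlap, and the log2 fold change was -1.69 ± 0.24 (FDR 0.00132). Its paralog Acaa1a measured 148, 161 and 234 CPM in WT and 96.4, 102 and 91.8 in HepKO, a log2 fold change of -0.90 ± 0.17 (FDR 0.00509). The reads of such close copies can be split in counting, and with both summed the log2 fold change was -1.58 (FDR 0.00149). The ratio of Acaa1b to Acaa1a counts was 6.90, 8.02 and 8.16 in WT and 5.28, 3.95 and 4.32 in HepKO, lower in every HepKO library.

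Scp2 (chr4:108043839-108144998, minus strand), whose gene encodes both the thiolase for branched chains and a sterol carrier protein, was the most abundant peroxisome gene per length in WT. It measured 5169, 5131 and 5641 CPM in WT and 1191, 2169 and 2483 in HepKO. HepKO replicate 1 was the lowest library, and the log2 fold change was -1.45 ± 0.26 with it (FDR 0.00366) and -1.20 without it (FDR 0.000864). Hsd17b4, the D-bifunctional protein that serves bile acid precursors and branched chains, measured 651, 747 and 863 CPM in WT and 305, 351 and 373 in HepKO. The groups did not overlap, with a log2 fold change of -1.14 ± 0.14 (FDR 0.000845). Amacr, the racemase that readies branched chains for the spiral, changed by -0.59 ± 0.17 (FDR 0.0299), a call that did not hold without HepKO replicate 1, HepKO replicate 2 or WT replicate 3.

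Ehhadh, the L-bifunctional protein, which carries the same pair of reactions on straight and dicarboxylic chains and is a known PPARA target, measured 500, 571 and 731 CPM in WT and 598, 426 and 438 in HepKO. The groups overlapped through HepKO replicate 1 (log2 fold change -0.30 ± 0.19, FDR 0.240, and -0.48 with FDR 0.0597 without it). Acox2, the oxidase for bile acid precursors, measured 231, 229 and 279 CPM in WT and 268, 210 and 199 in HepKO. These groups also overlapped, with a log2 fold change of -0.13 ± 0.14 (FDR 0.533), while with library totals the value was 0.39 and passed (FDR 0.0487). A count ratio within libraries separated the groups here too. Hsd17b4 over Ehhadh gave 1.30, 1.31 and 1.18 in WT and 0.510, 0.825 and 0.851 in HepKO, lower in every HepKO library.

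The auxiliary enzymes for unsaturated chains fell, 3 of 3, with a median log2 fold change of -1.18. Ech1, which moves paired double bonds into the position the reductase needs, measured 314, 306 and 343 CPM in WT and 130, 113 and 130 in HepKO. Both groups were tight and far apart, with a log2 fold change of -1.37 ± 0.11 (FDR 0.000149). The Ech1 product is also found in mitochondria. Pecr, the trans-enoyl-CoA reductase, measured 171, 178 and 228 CPM in WT and 100, 75.4 and 78.7 in HepKO (log2 fold change -1.18 ± 0.16, FDR 0.00109). Decr2, the peroxisomal dienoyl-CoA reductase, changed less, by -0.62 ± 0.16 (FDR 0.0162). It lost its call without HepKO replicate 2 or 3.

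Both enzymes of alpha-oxidation, the removal of a single carbon from branched chains such as phytanic acid, fell. Phyh, the phytanoyl-CoA hydroxylase that is defective in Refsum disease, measured 2305, 2222 and 2726 CPM in WT and 1053, 1225 and 1374 in HepKO, with a log2 fold change of -0.99 ± 0.15 (FDR 0.00181). No library of a group came near the other group. Hacl1, the lyase of the following step, measured 35.2, 28 and 35.9 CPM in WT and 16.3, 10.4 and 16.6 in HepKO (log2 fold change -1.19 ± 0.19, FDR 0.00238). It shares 1540 exon bases with a gene on the same strand, so its counts are uncertain.

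The genes of ether lipid synthesis moved in opposite directions. Gnpat (chr8:124863033-124890057, plus strand), the acyltransferase that starts the pathway inside the peroxisome, measured 59.1, 58.9 and 62.4 CPM in WT and 31.4, 32.4 and 36.5 in HepKO. It fell by 0.85 on the log2 scale (SE 0.09, FDR 0.000558), with tight groups. Agps (chr2:75832177-75931350, plus strand), the synthase that swaps the acyl chain for an alkyl chain, measured 16.6, 18 and 15.4 CPM in WT and 18.7, 23.2 and 22.3 in HepKO. Its groups lay close without overlap, and the log2 fold change of 0.36 ± 0.12 was just past the threshold (FDR 0.0488). Far1 (chr7:113513834-113571511, plus strand), the reductase that supplies the fatty alcohol and is held to limit the rate of the pathway, measured 2.67, 3.87 and 2.81 CPM in WT and 6.40, 7.15 and 7.49 in HepKO. It was thus low in all libraries and more than 2-fold higher in HepKO (log2 fold change 1.17 ± 0.21, FDR 0.00397).

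Count ratios within libraries can show only how Gnpat moved relative to Far1 and Agps, not the direction of any single gene. Gnpat counts were 22.2, 15.2 and 22.2 times those of Far1 in WT and 4.90, 4.53 and 4.87 times in HepKO. Gnpat over Agps was 3.57, 3.28 and 4.06 in WT and 1.68, 1.40 and 1.63 in HepKO. Neither ratio overlapped between groups. Of these 3 genes, the calls of Gnpat and Far1 held in every planned setting, while that of Agps was lost with limma-voom, without a filter, with a replicate block and in 5 of 6 leave-outs (its log2 fold change then ranged from 0.29 to 0.45). Gnpat shares 280 exon bases with another gene of the same strand.

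**Figure D3:**
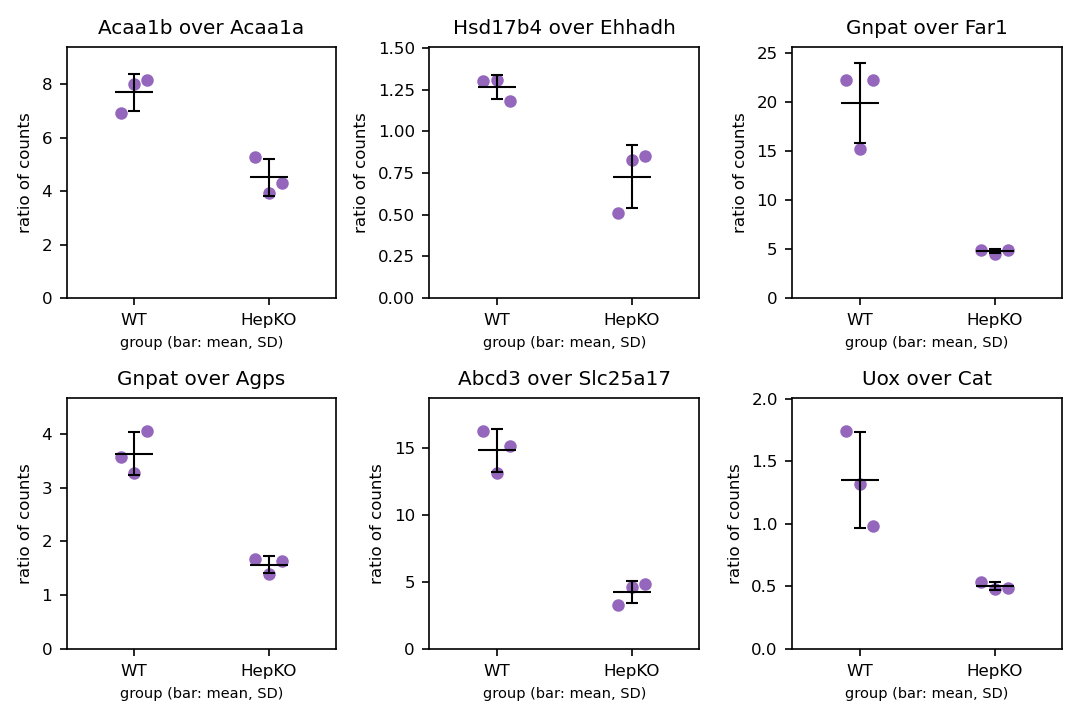
Count ratios of 2 peroxisome genes within each library (linear axes from 0, 1 point per library, bars for the mean and SD of 3), which do not depend on the scaling between libraries. The 3 HepKO points lie below the 3 WT points in each of the panels: Acaa1b over Acaa1a, Hsd17b4 over Ehhadh, Gnpat over Far1, Gnpat over Agps, Abcd3 over Slc25a17 and Uox over Cat.

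Of 5 tested genes for oxidases, catalase and glyoxylate metabolism, 4 were lower, with a median log2 fold change of -1.23. Uox (chr3:146570426-146632305, plus strand), the urate oxidase of the crystalline peroxisome core in rodent liver, measured 6076, 4168 and 4008 CPM in WT and 1144, 1278 and 1317 in HepKO. WT replicate 1 was highest, all HepKO libraries lay well under WT, and the log2 fold change was -1.93 ± 0.19 (FDR 0.000359). Pipox, which oxidises pipecolate and sarcosine, measured 275, 268 and 308 CPM in WT and 105, 90.1 and 100 in HepKO (log2 fold change -1.52 ± 0.11, FDR 0.000131), the smallest FDR of the 43 genes. Hao1, the glycolate oxidase, measured 386, 277 and 356 CPM in WT and 120, 135 and 179 in HepKO (log2 fold change -1.23 ± 0.18, FDR 0.00171).

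Cat (chr2:103453849-103485160, minus strand), the catalase, measured 3487, 3155 and 4070 CPM in WT and 2129, 2664 and 2721 in HepKO. The groups did not overlap on the TMM scale, with a log2 fold change of -0.51 ± 0.16 (FDR 0.0361), but the call was lost in each of the 6 leave-outs, and with library totals the value was 0.0033. The count ratio of Uox to Cat was 1.74, 1.32 and 0.985 in WT and 0.537, 0.480 and 0.484 in HepKO, without overlap. Agxt, the aminotransferase that turns glyoxylate, the product of Hao1, into glycine, measured 80.0, 77.3 and 138 CPM in WT and 98.5, 75.2 and 80.3 in HepKO. Its groups overlapped (log2 fold change -0.21 ± 0.23, FDR 0.496). The ratio of Hao1 to Agxt counts was 4.83, 3.58 and 2.59 in WT and 1.22, 1.79 and 2.23 in HepKO, lower in every HepKO library.

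Among the 7 enzymes that release, transfer or degrade acyl-CoA and cofactors, 4 were lower. Acot4 (chr12:84038379-84048601, plus strand), a thioesterase of succinyl-CoA and dicarboxylic acyl-CoA, measured 178, 251 and 302 CPM in WT and 91.5, 39.4 and 44.9 in HepKO. HepKO replicate 1 was nearest to WT, and the log2 fold change was -2.06 ± 0.34 with it (FDR 0.00262) and -2.54 without it (FDR 0.000445). Acot4 belongs to a cluster of like genes (Acot3 to Acot6), so reads can be split among them. Nudt12, a hydrolase of NAD(H) and related nucleotides, measured 110, 128 and 128 CPM in WT and 62.3, 65.7 and 57.3 in HepKO (log2 fold change -0.98 ± 0.10, FDR 0.000459). Mlycd, the malonyl-CoA decarboxylase, changed by -0.73 ± 0.13 (FDR 0.0038) and Nudt19, a CoA hydrolase, by -0.46 ± 0.13 (FDR 0.0292). Nudt19 shares 938 exon bases with a gene on the opposite strand, its call was lost in 5 of 6 leave-outs, and its value with library totals was 0.051.

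The other 3 did not pass. Nudt7, the CoA hydrolase of the peroxisome, measured 436, 329 and 552 CPM in WT and 101, 224 and 357 in HepKO. The HepKO libraries spread 3.54-fold and the groups overlapped, with a log2 fold change of -0.95 ± 0.41 (FDR 0.101). It was called lower with no filter on low counts (-0.97, FDR 0.00119) and without HepKO replicate 3 (-1.44, FDR 0.0278). Crot, the carnitine octanoyltransferase that exports shortened chains, measured 476, 423 and 704 CPM in WT and 386, 546 and 686 in HepKO. The ranges covered each other, with a log2 fold change of 0.01 ± 0.25 (FDR 0.972), although Crot was called higher with library totals and without HepKO replicate 1 (0.72, FDR 0.0256). Acot8, a broad thioesterase, changed by -0.30 ± 0.15 (FDR 0.144). The count ratio of Nudt12 to Nudt7 overlapped between groups (0.233 to 0.389 in WT and 0.161 to 0.619 in HepKO), unlike those of the other pairs given here. For Nudt7, Crot and Agxt, the standard error leaves room for changes as large as those called elsewhere among the 43 genes.

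The contrast of biogenesis factors with enzymes was read from counts within each library. The 13 biogenesis factors took 0.0783%, 0.0872% and 0.0969% of all counts in WT and 0.0802%, 0.0773% and 0.0770% in HepKO, and these ranges overlapped. The 28 enzymes took 1.88%, 1.77% and 2.01% in WT and 1.06%, 1.28% and 1.38% in HepKO, without overlap. Enzyme counts were 24.0, 20.3 and 20.7 times biogenesis counts in WT and 13.2, 16.6 and 17.9 times in HepKO, lower in every HepKO library. With 3 libraries against 3, an exact permutation test of such a ratio cannot give a p below 0.1. HepKO replicate 1 had the lowest ratio, and the other HepKO libraries still lay below WT.

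A few genes carry most of the enzyme counts. Scp2, Cat, Uox and Phyh together held 61.7% to 75.2% of them. Without these 4, a choice made after the data were seen, the ratio was 5.94, 5.80 and 6.72 in WT and 5.08, 5.14 and 5.70 in HepKO, still without overlap but closer. Per gene, the median log2 fold change was -0.90 for the 27 tested enzymes and -0.63 for the 13 biogenesis factors, and -0.39 and -0.12 with library totals. The single genes of the sets overlapped: enzymes ranged from -2.06 to 1.17 and biogenesis factors from -1.13 to -0.33. Of the enzymes 19 of 27 were called lower and 2 higher, and with library totals 13 lower and 3 higher. Without HepKO replicate 1 all 13 biogenesis factors, 17 enzymes and Abcd3 were still called lower on the TMM scale. WT replicate 3 was the highest WT library for 34 of the 43 genes, and without it the enzyme median was -0.73 and the biogenesis median -0.61.

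**Figure D4:**
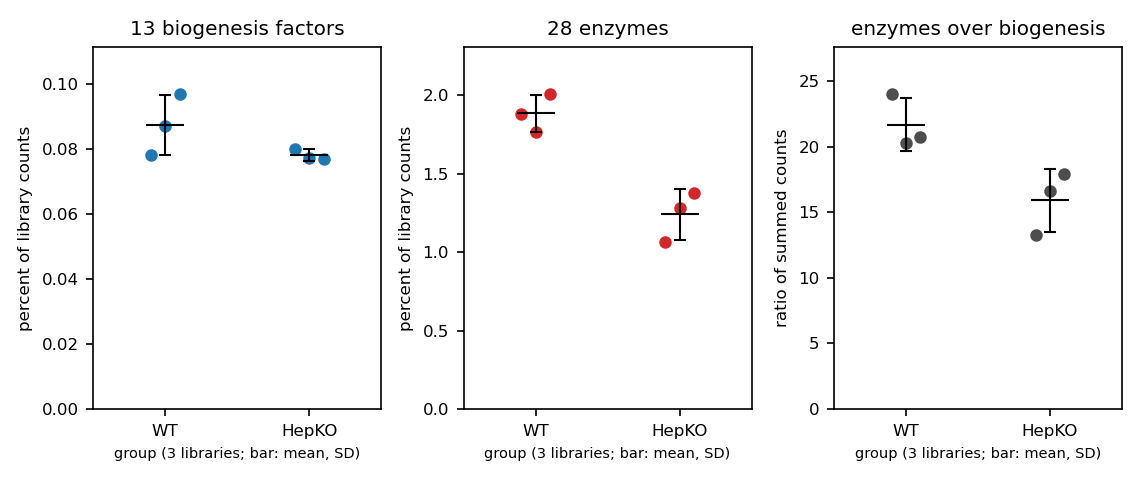
Share of all counts taken by the biogenesis factors and by the enzymes, and the ratio of enzyme to biogenesis counts, in each of the 6 libraries (1 point per library, bars for the mean and SD of 3, axes from 0). The enzyme share and the ratio are lower in every HepKO library, while the biogenesis shares of the groups overlap (0.0770% to 0.0802% in HepKO and 0.0783% to 0.0969% in WT).

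Levels per length of annotated exon (CPM per kb, group means) spanned more than 3 orders of magnitude. In WT, Scp2 (1528), Cat (1366) and Phyh (1277) were highest, followed by Uox (949) and Acaa1b (717). In HepKO the order was Cat (959), Phyh (643), Scp2 (560), Uox (249) and Acaa1b (222). The biogenesis factors were far lower, from 1.81 (Pex10) to 65.7 (Pex11a) in WT and from 0.941 to 30.8 (Pex19) in HepKO. Far1 was the lowest tested gene of the set in WT, at 0.387, and reached 0.870 in HepKO. These lengths count every annotated exon base, so genes with long or rarely used exons read low.

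**Figure D5:**
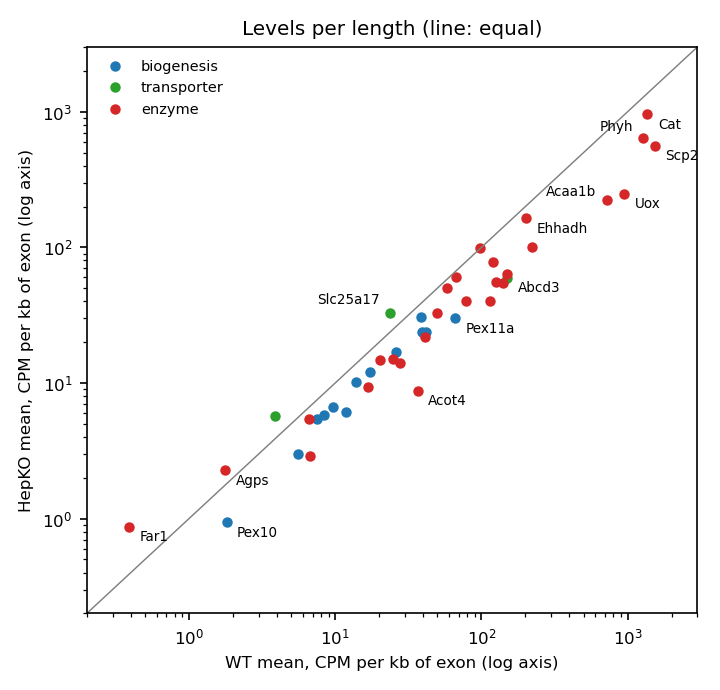
Mean level per kb of exon in HepKO against WT for the 43 tested peroxisome genes (CPM per kb, log axes, line of equal level, mean of 3 libraries per group). Scp2 falls from 1528 to 560 and Uox from 949 to 249, Cat lies nearer the line (1366 and 959), and Far1, Agps and Slc25a17 lie above it.

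Of a list of 45 further peroxisome genes, 28 of 40 tested were lower and 0 higher by edgeR, with a median log2 fold change of -0.70. Without HepKO replicate 1, 26 of 42 were lower and 1 higher. With library totals 12 were lower and 9 higher, with a median of -0.19. The shares of all genes tested were 18.7% lower and 19.5% higher on the TMM scale. They were 17.5% and 16.3% without HepKO replicate 1, and 5.84% and 46.4% with library totals. Among those with the smallest p were Crat, the carnitine acetyltransferase (-1.10 ± 0.10), and Acsl1, the long-chain acyl-CoA synthetase (-2.25 ± 0.24). Acsl1 measured 1635, 1457 and 2518 CPM in WT and 316, 404 and 458 in HepKO, without overlap. Acot5 had at most 3 counts in any library and was not tested.

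Of 8 regulators of peroxisome genes, 6 were lower, and 5 without HepKO replicate 1. Ppara measured 262, 289 and 319 CPM in WT and 74.9, 103 and 81.5 in HepKO, a log2 fold change of -1.75 ± 0.15 (FDR 0.000194). Its partner Rxra changed by -0.96 ± 0.16, the coactivators Ppargc1a by -1.04 ± 0.23 and Ppargc1b by -0.98 ± 0.20, and the liver receptors Nr1h4 by -0.995 ± 0.11 and Hnf4a by -0.35 ± 0.11. With library totals 3 of the 8 were lower and 2 higher. Beside these regulators and the targets that follow, 18.7% of all genes tested were lower and 19.5% higher on the TMM scale. The shares were 17.5% and 16.3% without HepKO replicate 1, and 5.84% and 46.4% with library totals. Of known PPARA targets outside the peroxisome, 13 of 19 tested were lower and 3 higher (median -0.95), and with library totals 10 were lower and 5 higher (median -0.44). Fabp1, the liver fatty acid binding protein, changed by -1.58 ± 0.19. The 3 that rose were Pdk4 (0.97 ± 0.32), Fgf21 (1.62 ± 0.35) and Ucp2 (1.63 ± 0.23).

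Mitochondrial fatty acid oxidation genes were lower too, 19 of 20 with a median log2 fold change of -0.91, beside -0.90 for the peroxisome enzymes. With library totals 14 were lower, with a median of -0.39, the same as that of the peroxisome enzymes. The smallest p-values there were those of Acadl (-1.14 ± 0.10) and Etfa (-1.01 ± 0.10). Among 9 genes of pexophagy and its receptors, 3 were lower (Atg14, Optn and Acbd5) and 1 was higher. The median log2 fold change was -0.17. Of the lower ones, Atg14 is the targeted gene itself, and Acbd5 is also counted among the further peroxisome genes above. With library totals 1 was lower and 5 higher, with a median of 0.35. For all genes tested, 5.84% were called lower and 46.4% higher with library totals, with a median of 0.52. On the TMM scale these shares were 18.7% and 19.5%, with a median of 0.01. Among the 9 pexophagy genes, that called higher on the TMM scale was the autophagy receptor Sqstm1. It measured 379, 360 and 338 CPM in WT and 1022, 899 and 914 in HepKO (log2 fold change 1.40 ± 0.11, FDR 0.000165).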

How the data were processed

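The authors deposited unnormalized read counts per gene. The tools named in the submitters' processing notes are bcl2fastq, STAR 2.7.11a, featureCounts, Subread 2.0.0 and edgeR 3.40.2, and the build is mm10, with no roles or order stated. Neither the gene annotation nor the strand setting is given in the sources used here. Per the labels, libraries were made with a stranded mRNA kit. Of 56350 gene IDs, 55480 matched GENCODE mouse release M21 (GRCm38, the assembly of mm10), 55180 of them in version, and coordinates are from that release. All 6 count columns were used.

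The 2-sided comparison of HepKO with WT used edgeR 4.0.16 (R 4.3.3), quasi-likelihood test, with TMM factors and filterByExpr by group, which kept 16051 genes, and p-values were adjusted by Benjamini-Hochberg over all of them (call: FDR under 0.05). The standard error is the size of the log2 fold change over the square root of F. Levels are CPM on TMM-scaled totals, with depth of 33145684 to 48951937 counts per library. Ratios between genes and shares use raw counts within a library. Chi-square per degree of freedom between libraries of a group was 24.2 to 117, well above sampling noise. It was 113 and 117 for the pairs with HepKO replicate 1 and 24.2 for HepKO replicates 2 and 3. Each library was counted as its own sample, but these values cannot show separate animals, since preparations of the same tissue can also differ. The script was tested on simulated data.

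Alternatives were DESeq2 1.42.0, limma-voom (limma 3.58.1), RLE factors, library totals, a minimum of 1 CPM in 3 libraries, no filter, TMM computed after dropping the 20 genes of highest abundance, each library left out, the replicate number as a block, and Acaa1a and Acaa1b summed. The genes and lists were chosen with earlier results of these data known. Named are all 44 genes, Atg14, the called regulators, the 4 further peroxisome genes called lower with the smallest p and any under 10 counts throughout, and the 2 called genes with the smallest p of each other list. Some genes taken by this rule are not reported here. Other genes named were chosen after their values were seen. Promoter sequences are from RefSeq (GRCm38.p6). No protein sequences were used here.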

Additional observations from a re-analysis of the deposited data

How the results depend on the processing

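With library totals in place of TMM, 16 peroxisome genes and 2 biogenesis factors were called lower, with medians of -0.12 (biogenesis) and -0.39 (enzymes), and of the further peroxisome genes 12 were lower and 9 higher. Of all genes tested, 5.84% were lower and 46.4% higher in that setting. Signs turned for Ehhadh (0.21), Agxt (0.30) and Acot8 (0.21), not called either way, and for Pex7 (0.044), Pex6 (0.046), Pex19 (0.18), Acox2 (0.39), Cat (0.0033) and Nudt19 (0.051). With library totals and without HepKO replicate 1, a setting added after seeing the data, 15 peroxisome genes and 1 biogenesis factor were lower, the medians were -0.14 and -0.29, 16 further peroxisome genes were lower and 9 higher, and Pex6 (0.062), Pex19 (0.16) and Cat (0.11) were positive. The number of enzymes called higher was 1 with limma-voom, with no filter and with the replicate block, and 1 to 2 over the leave-outs. The number of further peroxisome genes called higher was 1 with DESeq2 and with the replicate block, 2 with no filter, and 0 to 1 over the leave-outs. The enzyme median ranged from -0.96 to -0.73 over the leave-outs, and the number of peroxisome genes called lower from 26 to 31. The other counts stayed within 1.5 times their value under DESeq2, RLE factors, TMM without the 20 most abundant genes and both filters. Same-numbered libraries did not deviate together (r -0.139, -0.109 and 0.030), and differently numbered ones gave -0.157 to 0.218. With 3 libraries per group, these values cannot decide whether the numbers pair the samples. The replicate block left 32 peroxisome genes lower and 2 higher, with Pex19 and Agps losing their calls, and 5071 genes called in all. The cause of these shifts was not tested. Depth limits Dao, Acot5 and, in precision, Far1.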

Other observations

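A few peroxisome genes outside the 44, chosen after their values were seen, had a level in HepKO replicate 1 that the other HepKO libraries did not share. Eci3, an enoyl-CoA isomerase, had 6, 4 and 3 counts in WT and 273, 4 and 1 in HepKO. Hao2, a hydroxyacid oxidase of longer chains, measured 0.101, 2.81 and 2.16 CPM in WT and 3.75, 0.0223 and 0.254 in HepKO (edgeR log2 fold change -0.32 ± 1.37, FDR 0.881). Acot3, a thioesterase of the same cluster as Acot4, measured 41.7, 78.7 and 102 CPM in WT and 15.3, 2.23 and 2.41 in HepKO (log2 fold change -3.46 ± 0.76, FDR 0.00901), the lowest log2 fold change among the further peroxisome genes tested. For each of these genes HepKO replicate 1 was the highest HepKO library, as it was for Acot4 (91.5 CPM beside 39.4 and 44.9) and Abcd2 (53.8 beside 23.6 and 25.1). These are picked cases. Among the 43 tested genes of the set, HepKO replicate 1 was the highest HepKO library for 18 and the lowest for 18.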
